A study of Mus musculus with 12 samples.

Results

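The genes described here are 7 transcriptional targets of the glucocorticoid receptor, *Tsc22d3*, *Fkbp5*, *Per1*, *Klf9*, *Ddit4*, *Sgk1* and *Txnip*, followed through bone marrow progenitors and plasmacytoid dendritic cells (pDCs) with and without histone deacetylase 3 (HDAC3). They are 7 of the 21088 genes listed in any of the study's 3 expression tables, and all 7 were found in the table of each cell type by gene symbol or NCBI Gene ID. They were chosen by name as known glucocorticoid targets, with the FPKM values of these HDAC3-KO and control libraries already in view. The differences between genotypes in these 7 genes are therefore given as a description, without a test.

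Glucocorticoids reach the nucleus through the glucocorticoid receptor, encoded by *Nr3c1*. The receptor is held ready for its ligand in the cytoplasm by HSP90 and its co-chaperones, and once bound it acts on genes through short palindromic response elements or through other transcription factors. Dexamethasone and corticosterone are best known in the immune system for killing lymphocytes and for restraining inflammatory transcription. Several of the 7 genes close feedback loops on the hormone signal, and several also answer to other signals, so that no single one of them reports on the receptor alone.

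RNA-seq libraries were made from 3 sorted C57BL/6 mouse populations. These were lymphoid-primed multipotent progenitors (LMPPs), the CD115- common dendritic cell progenitors (CD115-CDPs) that are rich in pDC precursors, and pDCs of the bone marrow (BM pDCs). For each population there were 2 control and 2 HDAC3-KO libraries, 12 in all. Mice of both genotypes carried *Hdac3* with a floxed exon 3 on both alleles (*Hdac3* fl/fl) and were injected intraperitoneally with tamoxifen for 5 days, and cells were sorted 7 days later. HDAC3-KO mice also carried *Rosa26*-CreERT2, a tamoxifen-activated Cre recombinase under a ubiquitous promoter, so that deletion was not limited to dendritic cells or their precursors. Controls lacked Cre, so that CreERT2 itself differed along with HDAC3. The age and sex of the mice, any steroid treatment and the hour of collection were not given in the sources used here. Nothing in these sources says that the 2 libraries of a group came from separate mice, so p values measure only how far these samples scatter, and that scatter may be technical. LMPPs and CD115-CDPs were lysed in a buffer for small cell numbers and BM pDCs in Trizol, so that lysis and cell type cannot be told apart.

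*Hdac3* measured 56.5 and 66.4 FPKM (fragments per kilobase of transcript, scaled to the mapped reads of a library) in control LMPPs and 16.9 and 9.87 in HDAC3-KO LMPPs. It measured 58.2 and 39.6 against 12.1 and 0.93 FPKM in CD115-CDPs, and 38.9 and 37.8 against 15.6 and 15.9 FPKM in BM pDCs. All HDAC3-KO libraries thus lay below their controls, although transcripts without exon 3 can still be counted. HDAC3-KO library 2 of the CD115-CDPs stood apart, where 11288 genes were above 0 and the other 3 libraries of that population had 13684 to 15173. Expected counts summed to between 18117748 and 18462220 in the BM pDC libraries, and the other tables give no read totals. The pDC marker genes *Siglech*, *Bst2*, *Tcf4*, *Ly6d* and *Ccr9* summed to 5975 and 6307 FPKM in control BM pDCs and to 2863 and 2638 FPKM in HDAC3-KO BM pDCs. Of these *Ccr9* had no call there, at 209 and 243 against 200 and 198 FPKM (log2 difference −0.05; edgeR). In CD115-CDPs the same 5 genes summed to 1253 and 913 FPKM in controls and to 267 and 188 FPKM in HDAC3-KO cells, although none of them passed there (0 calls by limma). The LMPP markers *Flt3*, *Cd34*, *Kit* and *Ly6a* summed to 1427 and 1540 FPKM in control and to 1077 and 1019 FPKM in HDAC3-KO LMPPs. Among them *Kit* passed as lower by limma. The CDP markers *Flt3*, *Kit*, *Cd34* and *Csf1r* summed to 742 and 663 FPKM in control and to 671 and 502 FPKM in HDAC3-KO CD115-CDPs. *Csf1r* measured 139 and 95.3 against 64.7 and 21.5 FPKM there, without a call. The neutrophil genes *S100a8*, *S100a9*, *Ngp*, *Camp* and *Ltf* summed to 597 and 408 FPKM in control LMPPs against 44.9 and 16.0 FPKM in HDAC3-KO LMPPs. Control LMPP library 1 held 6396 FPKM of erythroid genes against at most 152.8 FPKM in the other 3. Conventional dendritic cell genes summed to 129 and 132 FPKM in control and 253 and 228 FPKM in HDAC3-KO BM pDCs, and they did not move as one. *Clec9a* rose there from 46.3 and 51.2 to 208 and 196 FPKM and *Zbtb46* by 3.43 on the log2 scale, *Cd209a* fell from 80.3 and 78.8 to 35.4 and 18.6 FPKM, and *Xcr1* stayed under 1 FPKM in all 4 libraries. Monocyte and macrophage genes summed to 52.1 and 48.4 FPKM in control and 113 and 133 FPKM in HDAC3-KO BM pDCs, where *Ccr2* and *Csf1r* rose and *Adgre1* and *C1qa* fell. The part of these other-cell markers in the values below was not tested.

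The promoters of the 7 genes were read for the letters of hormone, clock and forkhead sites. RefSeq windows running from 250 bases before to 50 bases after an annotated start (GRCm38.p6, the build called mm10) were found for all 7 genes, 15 windows in all, with 6 for *Sgk1* and 3 for *Tsc22d3*. The full glucocorticoid response element, AGAACA and TGTTCT separated by 3 bases, was in 1 of these windows, at *Sgk1*, and in 3 of all 32851 windows (0.00913%). The single hexamer TGTTCT, on either strand, was in 4 of the 15 windows, 3 at *Sgk1* and 1 at *Tsc22d3*, and in 19% of all windows. The forkhead site GTAAACA was in 2 windows, at *Klf9* and *Txnip*, and in 3.65% of all windows. The E-box CACGTG, the site of the clock and ChREBP families, was in 3 windows, at *Fkbp5*, *Per1* and *Sgk1*, and in 7.15% of all windows. The cyclic AMP element TGACGTCA was in 0 of the 15 windows and in 1.79% of all windows, and the *Ddit4* window held none of the 5 motifs. A match of letters is no evidence of binding, and receptor sites far from the start are outside these windows. Only exact letters were searched, so an element that differs from them in any base was not counted.

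Stretches upstream of coding exons are shown because they hold the response element, a hormone hexamer, and the forkhead letters that *Klf9* and *Txnip* have in common. The *Sgk1* stretch is chr10:21993640-21993889 (plus strand), with the response element 189 bases before the start and an E-box that overlaps another hexamer near its 5′ end. The *Tsc22d3* stretch is chrX:140600660-140600772 (minus strand), with the hexamer 185 bases before the start. Both *Sgk1* and *Tsc22d3* have other annotated starts, and which start these cells use was not tested. The *Klf9* stretch is chr19:23140976-23141225 (plus strand) and that of *Txnip* is chr3:96557707-96557956 (plus strand), with the forkhead site 100 and 121 bases before the start. Capitals mark the motifs, and each sequence runs 5′ to 3′ on the strand of the gene.
Sgk1: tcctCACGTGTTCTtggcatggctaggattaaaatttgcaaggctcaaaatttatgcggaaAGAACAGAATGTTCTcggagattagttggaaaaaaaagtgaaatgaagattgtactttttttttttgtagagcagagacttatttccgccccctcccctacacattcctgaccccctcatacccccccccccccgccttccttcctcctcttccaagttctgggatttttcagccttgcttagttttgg
Tsc22d3: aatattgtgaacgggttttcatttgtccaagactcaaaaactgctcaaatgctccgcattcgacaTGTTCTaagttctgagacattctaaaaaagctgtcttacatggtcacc
Klf9: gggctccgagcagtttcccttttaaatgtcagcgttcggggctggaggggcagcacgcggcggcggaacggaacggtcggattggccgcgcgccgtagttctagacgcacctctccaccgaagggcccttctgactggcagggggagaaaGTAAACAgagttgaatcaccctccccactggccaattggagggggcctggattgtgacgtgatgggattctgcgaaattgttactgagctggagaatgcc
Txnip: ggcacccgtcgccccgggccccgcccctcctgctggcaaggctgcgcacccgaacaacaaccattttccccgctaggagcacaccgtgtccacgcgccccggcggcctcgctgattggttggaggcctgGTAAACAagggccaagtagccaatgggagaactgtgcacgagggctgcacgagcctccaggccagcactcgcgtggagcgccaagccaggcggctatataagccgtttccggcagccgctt

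*Tsc22d3* (chrX:140539528-140600659) encodes GILZ, a leucine zipper protein that restrains NF-κB and AP-1 and is among the most direct readouts of the hormone in leukocytes. In LMPPs it measured 122 FPKM in both controls and 107 and 68.7 FPKM in the HDAC3-KO libraries, so that the HDAC3-KO libraries lay below. In CD115-CDPs it measured 27.7 and 22.7 FPKM in controls against 151 and 139 FPKM in HDAC3-KO cells, a mean ratio of 5.76. In BM pDCs it measured 238 and 239 FPKM in controls and 330 and 370 FPKM in HDAC3-KO cells, a mean ratio of 1.47. The groups did not overlap in any of the 3 populations, and the order was opposite in LMPPs. Among the genes above 0 in the same library, *Tsc22d3* went from the 75.0th and 73.1th percentile in control CD115-CDPs to the 95.0th and 93.4th in HDAC3-KO CD115-CDPs. It stood between the 88.2th and 94.2th in all LMPP libraries and between the 98.2th and 98.7th in all BM pDC libraries. The number of genes above 0 differed between libraries and was lowest, at 11288, in HDAC3-KO library 2 of the CD115-CDPs. Percentiles therefore compare libraries only roughly, that library least of all. By this rank control CD115-CDPs were the low point of the gene. As these are bulk libraries, more cells with the transcript and more transcript per cell cannot be told apart, here and for each gene that follows.

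*Fkbp5* (chr17:28399094-28517527) encodes FKBP51, the co-chaperone that lowers the affinity of the receptor for its ligand. In CD115-CDPs it measured 9.01 and 12.6 FPKM in controls and 16.7 and 21.1 FPKM in HDAC3-KO cells. In BM pDCs it measured 23.9 and 28.6 FPKM in controls and 37.5 and 63.7 FPKM in HDAC3-KO cells, with HDAC3-KO library 2 far above library 1. In LMPPs the groups overlapped, at 6.51 and 6.17 FPKM against 10.5 and 6.05 FPKM. Mean HDAC3-KO to control ratios were 1.75 in CD115-CDPs and 1.93 in BM pDCs. Noncoding genes lie within the *Fkbp5* locus, some of them on the opposite strand, and whether the counting used strand is not given in the sources used here.

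*Per1* (chr11:69095217-69109960) encodes a repressor of the circadian clock through which glucocorticoids shift peripheral rhythms. It measured 105 and 99.8 FPKM in control BM pDCs, in the 95.4th and 95.1th percentile, and 79.2 and 85.4 FPKM in HDAC3-KO BM pDCs. Its level was far lower in the progenitors. Controls measured 2.70 and 2.31 FPKM in LMPPs (35.5th and 35.0th percentile) and 1.53 and 2.30 FPKM in CD115-CDPs. HDAC3-KO cells measured 3.68 and 2.61 FPKM in LMPPs, which overlapped the controls, and 8.40 and 3.10 FPKM in CD115-CDPs, which lay above them. In FPKM the order of the genotypes was therefore opposite in CD115-CDPs and BM pDCs. The log2 difference was 1.25 (SE 0.63) in CD115-CDPs and only −0.18 (SE 0.10; edgeR) in BM pDCs. Without HDAC3-KO library 2 the log2 difference in CD115-CDPs was 1.90, and without HDAC3-KO library 1 it was 0.59.

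*Klf9* (chr19:23141226-23168134) encodes a Krüppel-like repressor induced early by corticosteroids and thyroid hormone. By its mean it was the lowest of the 7 genes in control cells of all 3 populations. In LMPPs it measured 2.72 and 1.51 FPKM in controls and 0.60 and 0.43 FPKM in HDAC3-KO cells. In CD115-CDPs the order turned, with 0.45 and 0.75 FPKM in controls and 1.44 and 1.04 FPKM in HDAC3-KO cells. In BM pDCs it measured 0.58 and 0.57 FPKM in controls and 0.35 and 0.30 FPKM in HDAC3-KO cells, which corresponds to 35 and 34 expected counts against 21 and 18. *Klf9* reached 1 FPKM only in controls of the LMPPs and only in HDAC3-KO cells of the CD115-CDPs, so that it passed the filter on low values there through the group in which it was high. A microRNA gene lies within its locus.

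*Ddit4* (chr10:59949669-59951834) encodes REDD1, an inhibitor of mTORC1 that is switched on by glucocorticoids, hypoxia, DNA damage and amino acid stress. In CD115-CDPs it measured 1.81 and 1.61 FPKM in controls and 24.7 and 8.07 FPKM in HDAC3-KO cells. In BM pDCs it measured 24.1 and 22.2 FPKM in controls and 92.8 and 183 FPKM in HDAC3-KO cells. The controls were close to each other in both populations, and the HDAC3-KO libraries differed between themselves while both lay above. Mean ratios were 9.57 in CD115-CDPs and 5.95 in BM pDCs, the largest among the 7 genes in each. In LMPPs the controls measured 3.37 and 7.84 FPKM and the HDAC3-KO libraries 8.16 and 4.81 FPKM, and the sign of the difference turned on leaving out control library 1 (log2 difference −0.30) or HDAC3-KO library 1 (−0.10).

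*Sgk1* (chr10:21882184-21999903) encodes a kinase of the AKT family that carries mineralocorticoid and glucocorticoid signals to ion channels and FoxO factors. In LMPPs it measured 10.4 and 11.9 FPKM in controls and 2.54 and 1.44 FPKM in HDAC3-KO cells, a mean ratio of 0.178. In CD115-CDPs it measured 4.96 and 2.47 FPKM in controls and 0.77 FPKM in HDAC3-KO library 1, and it was listed at 0 in HDAC3-KO library 2. It reached 1 FPKM only in the controls there. In BM pDCs it measured 2.47 and 2.29 FPKM in controls and 2.15 and 2.44 FPKM in HDAC3-KO cells, and the groups overlapped. Of the 7 genes, *Sgk1* was the one whose HDAC3-KO libraries lay below both controls in both progenitor populations.

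*Txnip* (chr3:96557957-96561883) encodes an arrestin-like protein that binds thioredoxin and curbs glucose uptake. In LMPPs it measured 122 and 146 FPKM in controls and 67.6 and 47.9 FPKM in HDAC3-KO cells, a mean ratio of 0.430. In CD115-CDPs it measured 54.8 and 31.2 FPKM in controls and 62.4 and 32.8 FPKM in HDAC3-KO cells, and the groups overlapped. In BM pDCs it measured 84.8 and 83.6 FPKM in controls and 101 and 106 FPKM in HDAC3-KO cells. *Txnip* was therefore lower in HDAC3-KO LMPPs and higher in HDAC3-KO BM pDCs. Its locus overlaps the antisense gene *Gm15441*, whose reads cannot be told apart from its own without strand.

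**Figure D1:**
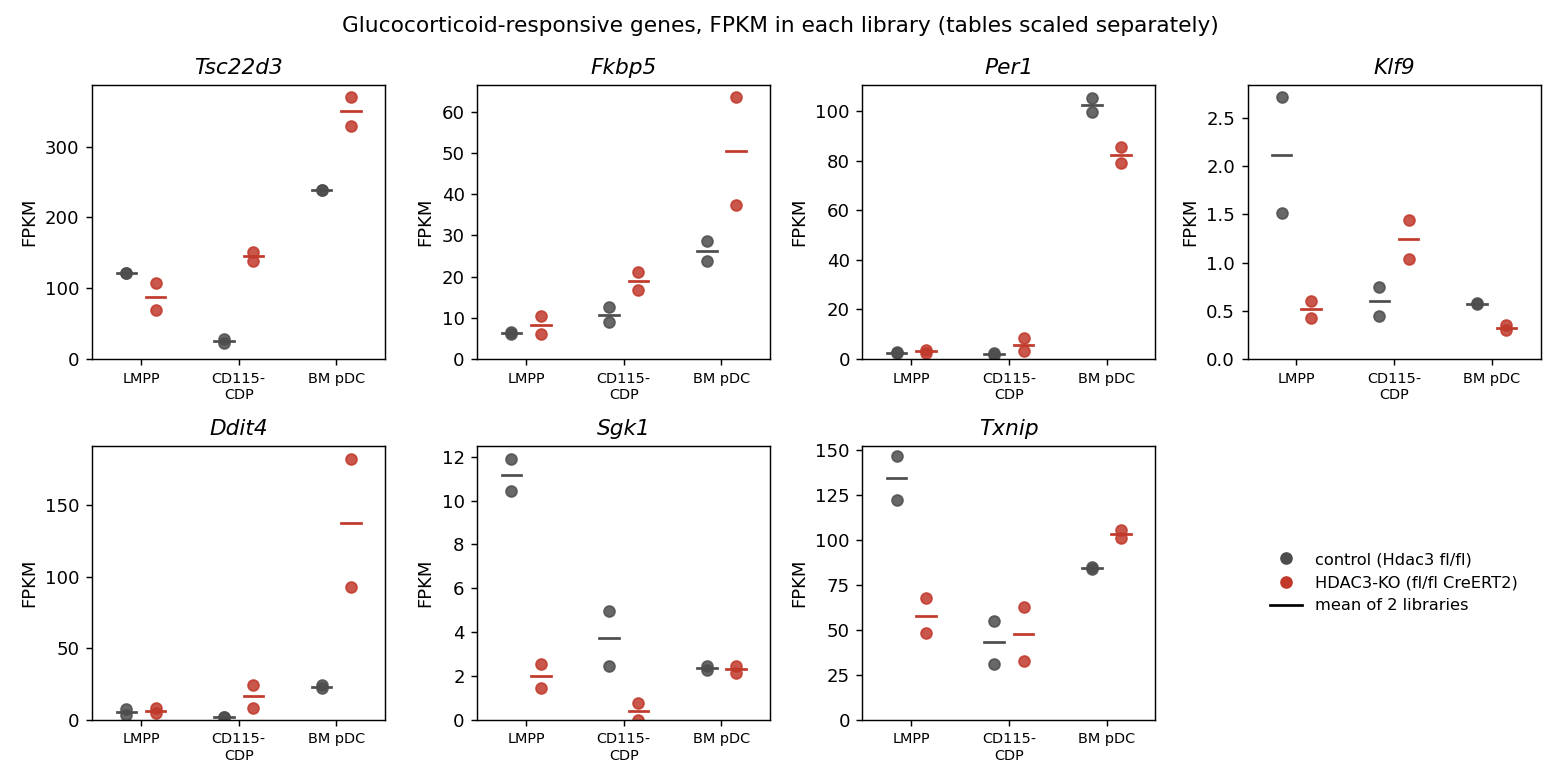
FPKM of the 7 genes in each of the 12 libraries, with 1 point per library, grey for control and red for HDAC3-KO, a short line at the mean of 2 libraries, and axes that start at 0 and differ between panels. *Tsc22d3* lies at 22.7 to 27.7 FPKM in control CD115-CDPs and at 139 to 151 FPKM in HDAC3-KO CD115-CDPs, whereas *Sgk1* and *Txnip* are lower in HDAC3-KO LMPPs.

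FPKM is per length, so that the 7 genes can be ordered by level within a population. In control LMPPs *Txnip* (134 ± 17.1 FPKM, mean ± SD, n = 2) and *Tsc22d3* (122 ± 0.226) came first, followed by *Sgk1* (11.2 ± 1.05), *Fkbp5* (6.34 ± 0.240), *Ddit4* (5.61 ± 3.16), *Per1* (2.51 ± 0.276) and *Klf9* (2.12 ± 0.856). The libraries of *Fkbp5* and *Ddit4* overlapped, as did those of *Per1* and *Klf9*. In control CD115-CDPs *Txnip* (43.0 ± 16.7 FPKM) and *Tsc22d3* (25.2 ± 3.54) again led, and *Per1* (1.92 ± 0.545) and *Ddit4* (1.71 ± 0.141) overlapped. In HDAC3-KO CD115-CDPs *Tsc22d3* (145 ± 8.42 FPKM) stood above *Txnip* (47.6 ± 20.9), and *Ddit4* (16.4 ± 11.7) overlapped both *Fkbp5* (18.9 ± 3.13) and *Per1* (5.75 ± 3.75). In control BM pDCs the order ran *Tsc22d3* (239 ± 0.608), *Per1* (103 ± 3.98), *Txnip* (84.2 ± 0.870), *Fkbp5* (26.3 ± 3.34) and *Ddit4* (23.2 ± 1.37), of which the last pair overlapped, and in HDAC3-KO BM pDCs *Tsc22d3* (350 ± 28.4) came first. By its mean *Ddit4* (138 ± 63.6) was second there, but its libraries lay on either side of both libraries of *Txnip* (103 ± 3.37).

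The 7 genes did not share one direction. In HDAC3-KO LMPPs 0 of the 7 lay above and 4 below both controls without overlap, beside 17.6% and 48.2% of all 11146 genes tested. In HDAC3-KO CD115-CDPs 5 lay above and 1 below, beside 15.2% and 28.4% of 10832 genes. In HDAC3-KO BM pDCs 4 lay above and 2 below, beside 27.2% and 48.9% of 12716 genes. Since this contrast was in view when the genes were chosen, nothing is read from these counts. *Klf9* was among the genes tested in LMPPs through its controls and in CD115-CDPs through its HDAC3-KO libraries, and *Sgk1* in CD115-CDPs through its controls, so that for these a gap between the groups was built into passing the filter.

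The log2 differences, HDAC3-KO minus control, ran from −2.26 (SE 0.28) for *Sgk1* to 0.31 (SE 0.27) for *Fkbp5* in LMPPs, with a median of −0.50 beside −0.23 over all genes tested. In CD115-CDPs they ran from −2.34 (SE 0.74) for *Sgk1* to 2.73 (SE 0.63) for *Ddit4*, with a median of 0.79 beside −0.16. In BM pDCs they ran from −0.70 (SE 0.32) for *Klf9* to 2.72 (SE 0.31) for *Ddit4*, with a median of 0.43 beside −0.01. *Tsc22d3* differed by −0.50 (SE 0.20), 2.51 (SE 0.26) and 0.69 (SE 0.11) in these 3 populations. FPKM was scaled without allowance for composition, and the all-gene median moved to −0.00 in LMPPs and −0.04 in CD115-CDPs when libraries were rescaled by their median ratio. Relative to the all-gene median, *Tsc22d3* stood at −0.27 in LMPPs, 2.67 in CD115-CDPs and 0.70 in BM pDCs, and *Txnip* at −0.99, 0.29 and 0.44. The share of lower genes among LMPP calls was 81.4% as deposited, 53.7% after median-ratio rescaling and 52.9% after quantile normalization, and the share in BM pDCs was 50.9% with edgeR and 66.3% with limma on FPKM.

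**Figure D2:**
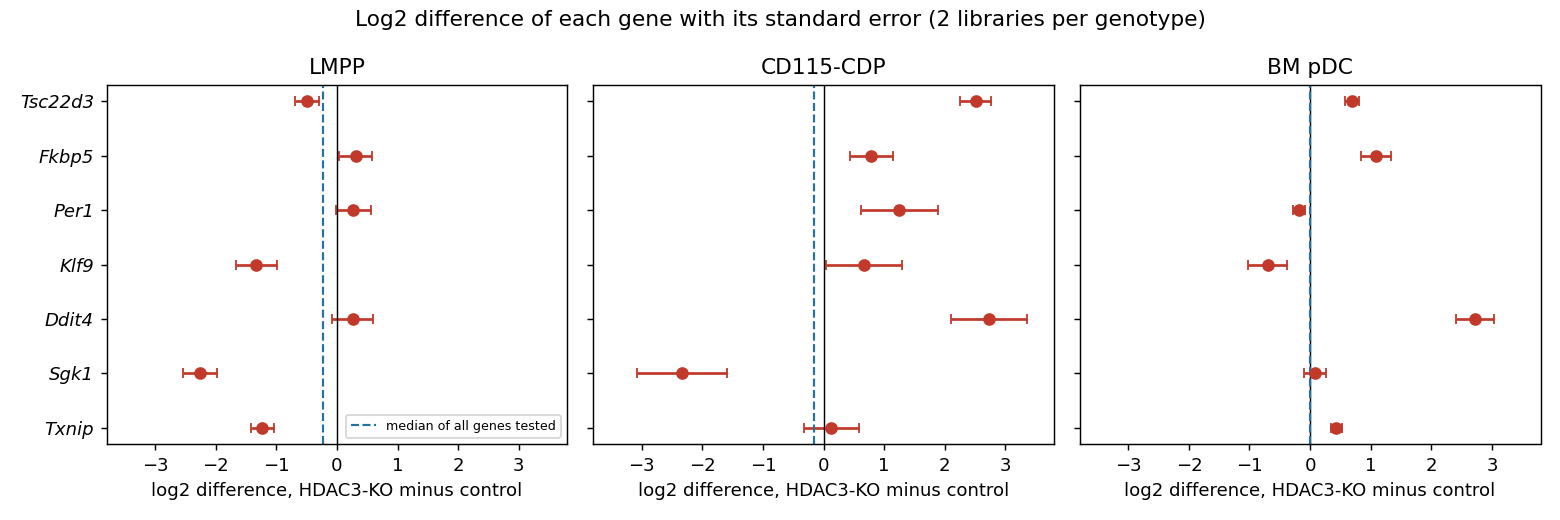
Log2 difference of each of the 7 genes, HDAC3-KO minus control, on the log2(FPKM + 0.5) scale for LMPPs and CD115-CDPs and from edgeR for BM pDCs. Bars are standard errors, and the dashed line is the median of all genes tested. *Ddit4* lies at 2.73 in CD115-CDPs and 2.72 in BM pDCs, and *Sgk1* at −2.26 in LMPPs and −2.34 in CD115-CDPs.

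Covariation among the 7 genes was described over the 12 libraries, with log2(FPKM + 0.5) centred on the mean of each population. These libraries share genotype groups, so a correlation mainly reflects the differences already given. *Tsc22d3* and *Ddit4* had Pearson's r of 0.79, *Fkbp5* and *Ddit4* of 0.78, and *Tsc22d3* and *Per1* of 0.67. *Sgk1* ran with *Txnip* (r = 0.66) and against *Fkbp5* (r = −0.52) and *Tsc22d3* (r = −0.47). A search was made among 9429 genes that reached 1 FPKM in 2 or more libraries of every population. Since the highest r of so many genes was taken, high values are built in, and no link between genes is read from them. The gene most like *Tsc22d3* was *Wdfy1* (r = 0.954), which measured 4.92 and 3.99 FPKM in control and 15.6 and 21.3 FPKM in HDAC3-KO CD115-CDPs. *Ddit4* was most like *Scd2*, a stearoyl-CoA desaturase gene (r = 0.965), *Sgk1* most like *Wbp1* (0.986), *Txnip* most like *Tab1* (0.969), *Per1* most like the taurine transporter gene *Slc6a6* (0.962), *Klf9* most like *Ipmk* (0.947) and *Fkbp5* most like *Gdpgp1* (0.907).

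The hormone receptor itself was lower in HDAC3-KO cells. *Nr3c1* measured 9.55 and 8.62 FPKM in control and 5.48 and 3.16 FPKM in HDAC3-KO LMPPs, and it fell by 1.03 on the log2 scale (SE 0.27; limma, adjusted p = 0.015). This call was lost in 5 of 10 alternative settings, median-ratio rescaling and quantile normalization among them. In BM pDCs *Nr3c1* measured 33.4 and 34.6 FPKM in controls and 25.5 and 20.3 FPKM in HDAC3-KO cells, and it fell by 0.44 on the log2 scale (SE 0.11; edgeR, adjusted p = 0.015). In CD115-CDPs the values were 15.3 and 15.5 against 8.89 and 11.4 FPKM, a log2 difference of −0.59 (SE 0.35) that did not pass (limma, adjusted p = 0.62), though the groups did not overlap. *Nr3c2*, the mineralocorticoid receptor gene, was tested only in BM pDCs, where it fell from 1.06 and 0.92 FPKM to 0.58 and 0.39 FPKM (log2 difference −0.90, SE 0.26; edgeR, adjusted p = 0.029). *Hsd11b1*, which encodes the enzyme that regenerates active corticosterone inside cells, had no call, at 26.9 and 40.3 FPKM in control and 30.1 and 22.9 FPKM in HDAC3-KO BM pDCs (edgeR, adjusted p = 0.42). In LMPPs it measured 1.84 and 1.67 against 0.72 and 0.74 FPKM and did not pass (log2 difference −0.87, SE 0.31; limma, adjusted p = 0.056), though the groups did not overlap. It was not tested in CD115-CDPs.

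Chaperones and coregulators of the receptor moved in both directions. Genes of this and the following lists were not among the 7, and each was read from a fit over all genes at an adjusted p under 0.05. Of all genes tested, 4.31% were higher and 18.8% lower in HDAC3-KO LMPPs (limma), and 21.6% and 22.5% in HDAC3-KO BM pDCs (edgeR quasi-likelihood). In CD115-CDPs 0% passed by limma, although 332 genes were higher and 644 lower at an unadjusted p under 0.05. Of 26 receptor machinery genes tested in LMPPs, 2 rose and 4 fell, with a list median of 0.04 beside −0.23 over all genes. The rises were *Ptges3*, which encodes the p23 co-chaperone, and *Ppid*, which encodes the cyclophilin 40 co-chaperone (log2 difference 0.63, SE 0.17, and 0.59, SE 0.17; limma, adjusted p = 0.016 and 0.024). The falls included *Ncoa2*, a receptor coactivator gene (−0.92, SE 0.22; adjusted p = 0.01), and *H6pd*, which supplies the cofactor of the *Hsd11b1* enzyme (−0.94, SE 0.24; adjusted p = 0.013). Of 28 tested in BM pDCs, 9 rose and 8 fell, with a median of −0.10. *Hspa8*, the constitutive HSC70 chaperone gene, rose from 970 and 1029 to 1711 and 1942 FPKM, and *Ncoa3* and *Tbl1xr1*, a coactivator gene and an NCoR/SMRT complex gene, rose by 0.69 and 0.65 on the log2 scale. *Fkbp4*, whose product FKBP52 acts opposite to FKBP51 on the receptor, fell from 64.1 and 66.5 to 33.1 and 30.8 FPKM (log2 difference −0.90, SE 0.08; edgeR, adjusted p = 2.4e-04), in the same libraries in which *Fkbp5* was higher. *Stip1*, the HOP co-chaperone gene, and *Abcb1b*, a steroid-exporting transporter gene, also fell, by 0.45 and 0.56. None of the 25 tested in CD115-CDPs passed (0 calls), and the pair with the smallest p were *Hsp90ab1* (663 and 800 against 1392 and 1293 FPKM) and *Hsp90aa1* (345 and 435 against 567 and 914 FPKM; limma, adjusted p = 0.47 and 0.53). These counts moved with several settings. In LMPPs there were 1 rise and 1 fall without control library 1, 0 and 1 without control library 2, 4 and 5 without HDAC3-KO library 1, 5 and 2 without HDAC3-KO library 2, 1 and 0 with quantile normalization, and 0 of either without a filter on low values. In BM pDCs there were 5 rises without either control library, with 2 and 1 falls, and DESeq2 gave 9 rises and 5 falls. In CD115-CDPs 8 rose and 3 fell without HDAC3-KO library 1, and 1 rose and 1 fell without library 2.

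A further 32 genes known to be induced by glucocorticoids in one tissue or another were read beside the 7. In LMPPs 20 were tested, of which 2 rose, 9 fell and 9 did not pass, with a median of −0.75 beside −0.23 over all genes. In BM pDCs 29 were tested, of which 17 rose, 7 fell and 5 did not pass, with a median of 0.79 beside −0.01. The list was drawn up with earlier results of these libraries known, so its direction is not independent evidence. In LMPPs *Dusp1*, a MAP kinase phosphatase gene, fell from 939 and 929 to 237 and 154 FPKM (log2 difference −2.29, SE 0.21; limma, adjusted p = 9.9e-06). *Anxa1*, the annexin gene of glucocorticoid anti-inflammatory action, fell from 133 and 135 to 68.3 and 66.7 FPKM, and *Rgs2*, a regulator of G protein signalling, fell from 134 and 161 to 77.5 and 54.0 FPKM. All 3 rose in BM pDCs. *Anxa1* went there from only 2.88 and 3.95 to 7.69 and 10.2 FPKM. *Rgs2* rose there by only 0.37 on the log2 scale (SE 0.12; edgeR, adjusted p = 0.042). *Dusp1* there rose from 81.8 and 78.1 to 153 and 194 FPKM (log2 difference 1.26, SE 0.14; edgeR, adjusted p = 5.5e-04). *Bcl6*, a transcriptional repressor gene, rose from 5.18 and 4.29 to 16.1 and 20.8 FPKM.

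*Cdkn1a*, which encodes the cell cycle inhibitor p21 and is also a p53 target, rose in both populations with calls. It went from 29.2 and 34.0 to 93.1 and 83.0 FPKM in LMPPs (log2 difference 1.47, SE 0.17; limma, adjusted p = 5.8e-05) and from 3.62 and 3.84 to 30.4 and 39.6 FPKM in BM pDCs (3.37, SE 0.17; edgeR, adjusted p = 3.7e-05). *Mt1*, a metallothionein gene that also answers to zinc, likewise rose in both, by 1.33 (SE 0.22) in LMPPs and 2.03 (SE 0.26) in BM pDCs. *Il7r*, the interleukin 7 receptor gene, fell in BM pDCs from 82.3 and 84.1 to 19.2 and 11.2 FPKM. *Cebpd* and *Bcl2l11*, which encodes the death factor BIM, fell there by 1.13 and 0.77 on the log2 scale. *Cebpd* fell in LMPPs too, by 1.23 (SE 0.29). Of 22 tested in CD115-CDPs, 0 passed, with a median of −0.08 beside −0.16. *Mt1* (4.90 and 11.0 against 63.6 and 76.5 FPKM; limma, adjusted p = 0.23) and *Cdkn1a* (66.6 and 58.8 against 157 and 142 FPKM; adjusted p = 0.32) had the smallest p there. Without HDAC3-KO library 1 of the CD115-CDPs, 13 genes of the list passed, and without library 2, 9 did. Such a fit takes the spread of the lone HDAC3-KO library from that of the controls. Without a filter on low values the count in LMPPs was 4 in place of 11, and without either control library 11 rose and 5 fell in BM pDCs.

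**Figure D3:**
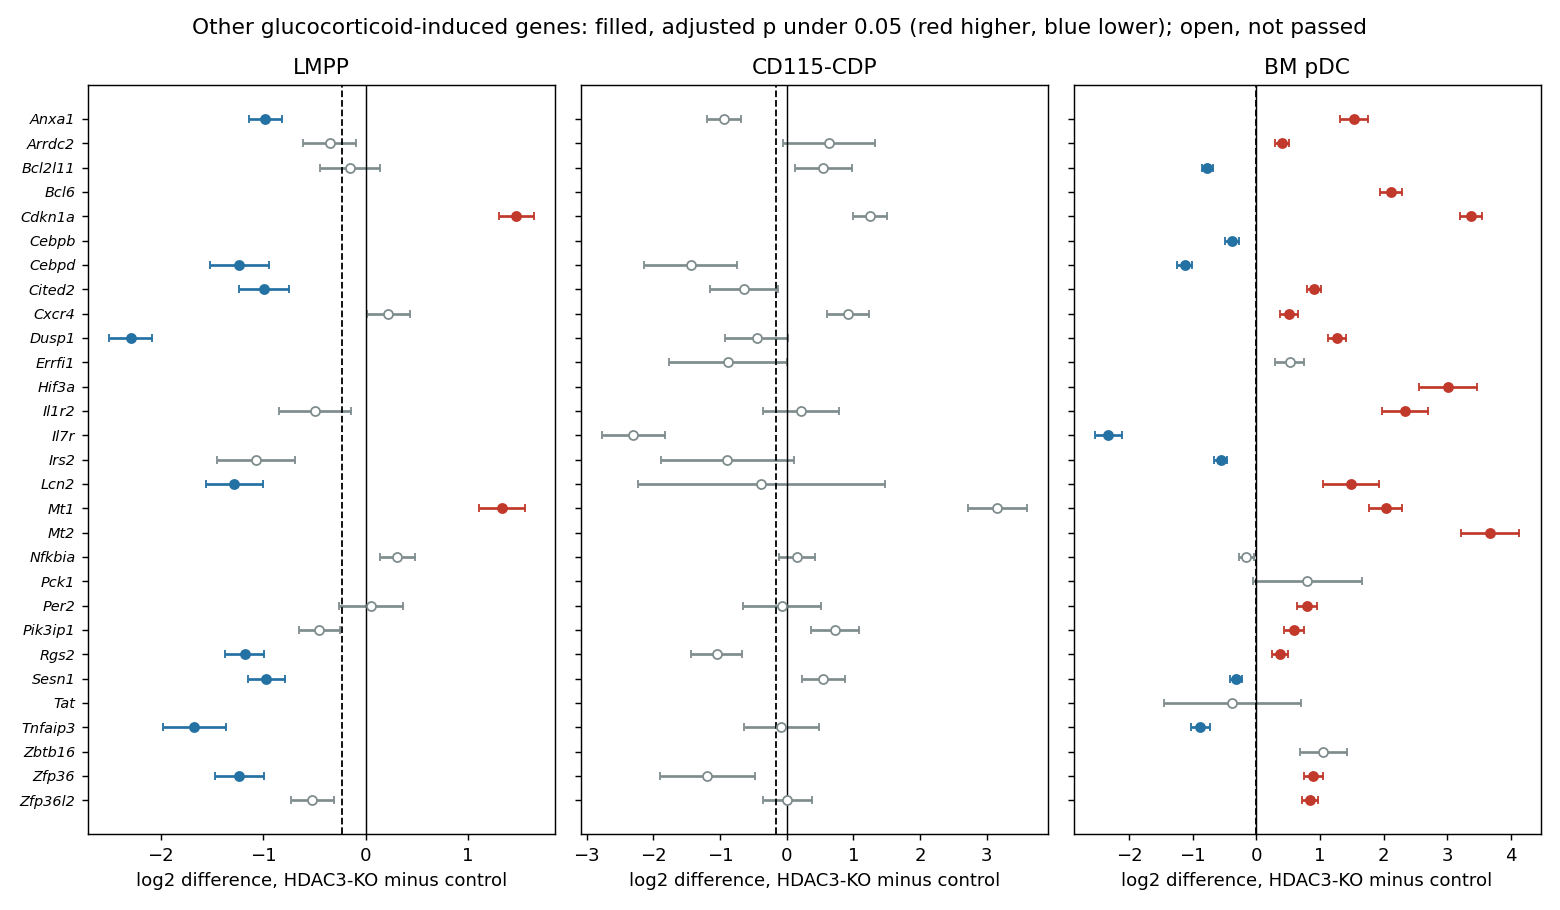
Log2 differences, HDAC3-KO minus control, of the other glucocorticoid-induced genes that were tested, 20 in LMPPs, 22 in CD115-CDPs and 29 in BM pDCs, with standard errors. Filled points passed at an adjusted p under 0.05, red for higher and blue for lower, open points did not, and the dashed line is the median of all genes. *Dusp1* lies at −2.29 in LMPPs and at 1.26 in BM pDCs.

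The closest relatives of the 7 genes were read from 16 paralogs, of which 13 were tested in each population. In LMPPs 0 rose and 3 fell, beside 4.31% and 18.8% of all genes, with a median of −0.30 beside −0.23. *Tsc22d1*, the paralog of *Tsc22d3* that also encodes a leucine zipper protein, fell from 215 and 214 to 96.8 and 77.4 FPKM (log2 difference −1.30, SE 0.17; limma, adjusted p = 1.6e-04), and *Arrdc3*, an arrestin relative of *Txnip*, fell from 14.3 and 16.9 to 5.50 and 3.19 FPKM (−1.77, SE 0.26; adjusted p = 4e-04). *Per3*, the clock paralog of *Per1*, fell by 1.24. In BM pDCs 4 rose and 6 fell, beside 21.6% and 22.5% of all genes, with a median of −0.27 beside −0.01. *Tsc22d1* fell there from 363 FPKM in both controls to 192 and 154 FPKM (log2 difference −0.90, SE 0.10; edgeR, adjusted p = 6.1e-04), whereas *Tsc22d4* went from 71.3 and 64.7 to 78.1 and 84.7 FPKM and rose by 0.40 (SE 0.10; adjusted p = 0.019). *Arrdc3* fell by 1.06 and *Klf16*, a relative of *Klf9*, rose by 0.34. Of 13 tested in CD115-CDPs, 0 passed, *Arrdc4* (9.72 and 13.2 against 5.98 and 4.71 FPKM) and *Tsc22d2* (2.99 and 3.43 against 1.39 and 0.34 FPKM) having the smallest p (limma, adjusted p = 0.55 for each). Without either control library of the BM pDCs, 0 paralogs rose and 3 fell, and with limma on FPKM 1 rose. In CD115-CDPs 2 rose and 6 fell without HDAC3-KO library 1, and 1 rose without library 2.

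Other clock genes were read beside *Per1*. In LMPPs 0 of 14 tested rose and 4 fell, with a median of −0.55 beside −0.23. *Arntl*, which encodes the activator BMAL1, fell from 24.7 and 22.7 to 15.1 and 12.6 FPKM (log2 difference −0.76, SE 0.19; limma, adjusted p = 0.012), and *Nr1d2*, a REV-ERB repressor gene, fell by 0.95 (SE 0.25; adjusted p = 0.014). The call of *Arntl* was lost after either rescaling. In BM pDCs 1 of 18 rose and 7 fell, with a median of −0.31 beside −0.01. *Per2* rose from 0.85 and 0.84 to 1.34 and 1.30 FPKM (log2 difference 0.79, SE 0.16; edgeR, adjusted p = 0.0065), while *Tef* and *Dbp*, clock output factors, fell by 0.86 and 0.90 and *Rora* by 1.26. The 13 clock genes tested in CD115-CDPs gave 0 calls. *Nfil3*, a repressor of the clock that is also a lineage factor of dendritic cells, measured 62.7 and 56.4 against 27.8 and 18.1 FPKM (limma, adjusted p = 0.39), and *Dbp* 2.41 and 2.39 against 0.50 FPKM and a library listed at 0 (adjusted p = 0.50). In LMPPs 1 clock gene fell without either control library and 7 fell without HDAC3-KO library 1, 1 rose without HDAC3-KO library 2, while 2 fell after median-ratio rescaling and 0 with quantile normalization or without a filter. In BM pDCs 0 rose and 3 fell without either control library, and 2 rose without HDAC3-KO library 1. In CD115-CDPs 1 rose and 4 fell without HDAC3-KO library 1, and 2 fell without library 2.

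Genes of the FoxO, mTOR and thioredoxin pathways surround *Sgk1*, *Ddit4* and *Txnip*. In LMPPs 0 of 21 rose and 4 fell, with a median of −0.37 beside −0.23. Over all genes tested there 4.31% were higher and 18.8% lower, so the falls are near that share. *Sesn1*, a sestrin gene that restrains mTORC1, fell from 70.6 and 85.3 to 45.2 and 34.1 FPKM (log2 difference −0.97, SE 0.18; limma, adjusted p = 0.0022), and *Slc2a1*, the GLUT1 glucose transporter gene, and *Rptor*, the mTORC1 scaffold gene, fell by 0.65 and 0.84. The calls of *Slc2a1* and *Rptor* were likewise lost. In BM pDCs 3 of 23 rose and 7 fell, beside 21.6% and 22.5% of all genes, with a median of −0.08 beside −0.01. *Rictor*, the mTORC2 scaffold gene, rose by 0.67, *Mlxip*, which encodes the glucose-sensing factor MondoA, by 0.58, and *Sesn2* by 0.51 on the log2 scale. *Foxo1* fell from 14.3 and 12.3 to 7.61 and 5.80 FPKM (log2 difference −0.86, SE 0.13; edgeR, adjusted p = 0.0021), *Sesn3* by 0.88 and *Rheb*, the GTPase gene that activates mTORC1, by 0.40. In CD115-CDPs 0 of 21 passed, *Rictor* (50.2 and 48.6 against 27.8 and 28.9 FPKM; limma, adjusted p = 0.50) and *Mlx* (29.6 and 30.3 against 21.3 and 8.0 FPKM; adjusted p = 0.56) having the smallest p. In LMPPs 1 gene of this list fell without either control library and after either rescaling, 0 fell without a filter, and 1 rose without HDAC3-KO library 1. In BM pDCs 2 fell without either control library, 1 rose without control library 2, and 4 fell with the replicate number as a block. In CD115-CDPs 3 rose and 10 fell without HDAC3-KO library 1, and 3 rose and 1 fell without library 2.

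Stress and hypoxia genes, which share inducers with *Ddit4*, were counted in the same way. In LMPPs 0 of 15 rose and 8 fell, with a median of −0.65 beside −0.23. *Vldlr*, a lipoprotein receptor gene induced by hypoxia, fell from 11.5 FPKM in both controls to 1.52 and 1.34 FPKM, *Ppp1r15a*, which encodes the GADD34 subunit that ends the integrated stress response, fell from 164 and 174 to 70.9 and 48.8 FPKM, and *Ndrg1* fell by 1.16. In BM pDCs 6 of 15 rose and 5 fell, with a median of −0.22 beside −0.01. *Ppp1r15a* rose from 82.3 and 79.5 to 115 and 127 FPKM (log2 difference 0.72, SE 0.10; edgeR, adjusted p = 0.0015), and *Ddit3*, which encodes the stress factor CHOP, rose by 0.70. *Egln3* and *Bnip3*, hypoxia-induced genes, fell by 1.29 and 0.62, and *Hif1a* fell by 0.74. In CD115-CDPs 0 of 13 passed, with *Ero1a* at 9.22 and 11.1 against 22.1 and 31.1 FPKM and *Trib3* at 0.53 FPKM and listed at 0 against 6.23 and 2.61 FPKM (limma, adjusted p = 0.42 and 0.43). Without control library 1 of the BM pDCs 5 rose and 2 fell, and without library 2, 3 rose and 2 fell. Without a filter 4 fell in LMPPs and 3 in BM pDCs, and DESeq2 also gave 3 falls in BM pDCs. In CD115-CDPs 2 rose and 7 fell without HDAC3-KO library 1, and 4 rose and 1 fell without library 2.

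Immediate early genes, which answer within minutes to many signals, fell for the most part in LMPPs and rose for the most part in BM pDCs. In LMPPs 14 of 16 fell and 0 rose, with a median of −2.15. *Egr1* fell from 188 and 239 to 19.1 and 10.2 FPKM, *Jun* from 598 and 686 to 80.0 and 52.1 FPKM, and *Btg2* by 2.15 on the log2 scale. In BM pDCs 12 of 19 rose and 2 fell, with a median of 0.67. *Egr1* rose from 10.4 and 10.9 to 29.9 and 41.4 FPKM (log2 difference 1.88, SE 0.17; edgeR, adjusted p = 2.3e-04), *Egr3* by 3.29 and *Ier2* by 1.79, while *Fosl2* and *Klf4* fell by 1.09 and 0.54. *Dusp1* and *Zfp36* belong to this list and to the glucocorticoid-induced list alike. In CD115-CDPs 0 of 16 passed, *Btg2* and *Egr1* measuring 44.2 and 36.2 against 18.3 and 10.0 FPKM and 10.2 and 10.6 against 4.57 and 2.23 FPKM (limma, adjusted p = 0.42 and 0.48). Without a filter 8 fell in LMPPs, and without control library 1 of the BM pDCs 0 fell there. In CD115-CDPs 9 fell without HDAC3-KO library 1, and 1 rose and 4 fell without library 2. The part of this list in the values of the 7 genes was not tested.

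**Figure D4:**
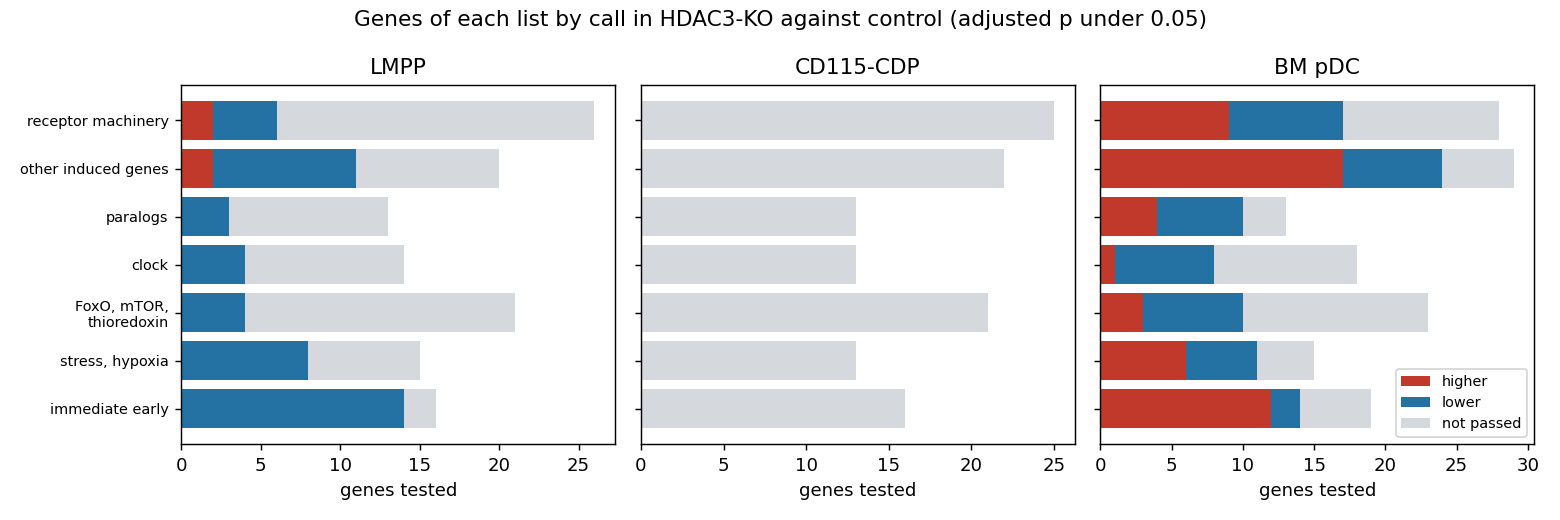
Number of genes tested in each list that were higher (red) or lower (blue) in HDAC3-KO cells at an adjusted p under 0.05, or did not pass (grey), in LMPPs, CD115-CDPs and BM pDCs. Among other glucocorticoid-induced genes 9 were lower and 2 higher in LMPPs, and 17 were higher and 7 lower in BM pDCs.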

How the data were processed

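RNA-seq data of LMPPs, CD115-CDPs and BM pDCs were analysed, with 2 control and 2 HDAC3-KO libraries per cell type and genotypes from the submitters' labels. Bowtie2, RSEM and the build mm10 are named in the submitters' notes on processing, without versions or parameters. The authors deposited FPKM per gene for the progenitors, and both expected counts and FPKM for BM pDCs. TPM, which the authors also deposited for BM pDCs, scaled within each library, was not used. CD115-CDP rows were named through their NCBI Gene ID.

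FPKM was compared with limma 3.58.1 (trend) in R 4.3.3 on log2(FPKM + 0.5), a scale that understates the change of low genes, and a gene had to reach 1 FPKM in 2 or more of the 4 libraries. Expected counts were rounded and compared with edgeR 4.0.16 (filterByExpr, TMM, quasi-likelihood). Tests were two-sided, within one table, with Benjamini-Hochberg adjustment over all genes tested. The procedure was also run on simulated data with the same noise setting for all genes. That simulation held no outlying library and no shift of composition, so it does not cover such features of these libraries. DESeq2 1.42.0 was an alternative. Without strand, reads of overlapping genes cannot be told apart. The depth of the progenitor libraries is not known.

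The 7 genes, the gene lists and the motifs were chosen with earlier results of these data known. Genes named from each list were up to 3 with the smallest p among those passing in each direction and cell type, or the 2 with the smallest p where none passed, together with *Hdac3*, *Nr3c1*, *Nr3c2*, *Hsd11b1* and, for each of the 7 genes, the most correlated gene. Alternatives were leaving out each library, a replicate block, no filter, other scalings, other pseudocounts, DESeq2 and limma on FPKM.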

Additional observations from a re-analysis of the deposited data

Results flagged for a closer look

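In several genes both HDAC3-KO libraries lay above both controls in one cell type and below both in another. The difference between cell types was not tested, because the tables were scaled separately, and it is given as the log2 difference in the later population minus that in the earlier one. Groups without overlap are common in these tables, as the shares of all genes in the report show. *Tsc22d3* was lower in LMPPs and higher in CD115-CDPs (3.01) and in BM pDCs (1.19). Its log2 difference in LMPPs was only −0.50 (SE 0.20). That value was −0.19 without HDAC3-KO library 2, −0.82 without HDAC3-KO library 1 and −0.25 after median-ratio rescaling. *Klf9* was higher in CD115-CDPs than its controls and lower in LMPPs (2.0) and in BM pDCs (−1.37). For *Klf9* a gap between the groups was built into passing the filter in LMPPs and CD115-CDPs. Its log2 difference in CD115-CDPs was 0.67 (SE 0.63), and all its BM pDC values were under 1 FPKM. *Per1* was higher in CD115-CDPs and lower in BM pDCs (−1.43), although its log2 difference in BM pDCs was only −0.18 (SE 0.10). *Txnip* was lower in LMPPs and higher in BM pDCs (1.66).

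Among the other named genes, lower in LMPPs and higher in BM pDCs were *Anxa1* (2.51), *Btg2* (2.48), *Ddit3* (1.99), *Dusp1* (3.54), *Egr1* (5.75), *Ier2* (2.46), *Jun* (3.50), *Mlxip* (0.99), *Ppp1r15a* (2.23), *Rgs2* (1.54) and *Rictor* (1.01). Lower in CD115-CDPs and higher in BM pDCs were *Anxa1* (2.46), *Btg2* (1.85), *Egr1* (3.43), *Jun* (2.06), *Rgs2* (1.42) and *Rictor* (1.46). Higher in LMPPs and lower in BM pDCs were *Ppid* (−0.83), *Ptges3* (−0.79), *Rheb* (−0.57) and *Stip1* (−0.85). Higher and lower mean here only the order of the libraries in FPKM. Several genes had no call on one side, among them *Jun*, *Ppid* and *Ptges3* in BM pDCs and *Rheb* and *Stip1* in LMPPs. No gene passed in CD115-CDPs. Higher in CD115-CDPs and lower in BM pDCs were *Bcl2l11* (−1.32), *Ero1a* (−1.55), *Ppid* (−0.99), *Ptges3* (−0.91), *Sesn1* (−0.88) and *Stip1* (−0.57), and *Sesn1* was lower in LMPPs and higher in CD115-CDPs (1.53).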

How the results depend on the processing

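Of 196 differences of single genes of the 7 under alternative settings, 167 moved by less than 1 SD between libraries and 29 by more or to the other sign. The sign changed in 7, for *Fkbp5* and *Ddit4* in LMPPs, *Txnip* in CD115-CDPs and *Sgk1* in BM pDCs. A further 7 could not be had because the gene did not pass the filter on low values. These were *Klf9* in LMPPs without either control, *Sgk1* in CD115-CDPs without either control, *Klf9* in CD115-CDPs without either HDAC3-KO library, and *Klf9* in BM pDCs with limma on FPKM. Passing calls of the 7 genes had been planned as a further count and are not given, since the contrast was in view when the genes were chosen.

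Leaving out 1 library at a time, calls over all genes ran from 846 to 4016 in LMPPs (2576 with all), from 1 to 5056 in CD115-CDPs (0 with all) and from 2750 to 7005 in BM pDCs (5611 with all). Calls among other induced genes ran from 9 to 14, 0 to 13 and 16 to 26, and the median log2 difference of the 7 genes from −0.82 to −0.17, 0.77 to 1.26 and 0.37 to 0.51, with *Klf9* or *Sgk1* missing as stated. In LMPPs the value without control library 2 was −0.17. Without a filter on low values, LMPPs had 501 calls, 4 among other induced genes. Quantile normalization gave 1651 calls in LMPPs and 2 in CD115-CDPs. The causes were not tested.

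Libraries of the 2 genotypes share only a replicate number, and deviations of same-numbered libraries correlated at −0.1 in LMPPs, 0.24 in CD115-CDPs and −0.24 in BM pDCs. With the number as a replicate block, CD115-CDPs had 393 calls, 4 among other induced genes, while LMPPs had 2548 and BM pDCs 5061 calls. Of 60 calls of named list genes, 34 passed in all settings and 0 changed sign. The remaining lists were recounted under the same settings, an addition chosen after seeing the data. Over all settings, immediate early genes that fell in LMPPs numbered 8 to 15, stress and hypoxia genes 4 to 9, paralogs 2 to 4, and clock, receptor machinery and FoxO pathway genes 0 to 7, 0 to 5 and 0 to 5, the lowest being without the filter and, for some lists, with quantile normalization too. Immediate early genes that rose in BM pDCs numbered 9 to 13. In CD115-CDPs calls appeared without HDAC3-KO library 1, without library 2 and, for some lists, with the block.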
